A study of Gallus gallus with 9 samples.

Results

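The genes described here make up the machinery by which chick cells export protein through the endoplasmic reticulum (ER) and the Golgi. They were chosen by symbol: all genes named SEC with a digit, SSR, SPCS, SRP with a digit, COPA, COPB, COPE, COPG, COPZ, KDELR, PDIA, TMED, SAR1 or TANGO, leaving out SRPK and SRPX genes. This gave 65 members, of which 61 had an entry among the 14120 named genes with one, and 57 passed the filter on low counts that left 11748 genes. PDIA2, SEC16B, TMED6 and TMED11 had an entry but did not pass, with at most 0.57 FPKM in any library (fragments scaled to transcript length and library total, the unit of every level given here). TMED3, TMED7, SPCS1 and SEC61A2 had no entry matched to their names and were not analysed here.

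Proteins bound for the cell surface or the matrix are recognised by the signal recognition particle (SRP), threaded into the ER through the SEC61 translocon, cleaved by signal peptidase and folded with disulfide isomerases. COPII vesicles, built by SAR1, SEC23, SEC24, SEC13 and SEC31, carry them from ER exit sites towards the Golgi, while COPI vesicles and KDEL receptors return escaped ER residents. Corneal endothelial cells and keratocytes lay down collagens and proteoglycans in bulk, and in zebrafish and humans loss of SEC23A or SEC24D impairs collagen export from craniofacial or skeletal cells.

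RNA was measured in periocular neural crest at embryonic day 3 (E3), in corneal endothelium at E5, and in corneal endothelium taken with keratocytes at E7, with 3 libraries for each stage; the labels name no treatment, allele or transgene. Periocular crest cells migrate around the eye and then form the corneal endothelium and the stromal keratocytes. The question here is how the genes of protein export differ between crest cells on the move and the cornea built from them. Whether the 3 libraries of a stage stem from different embryos is not stated in the labels, so the spread behind each p-value is that between these samples alone and may be technical. Library totals ran between 18405559 and 22055958 expected counts at E3, between 18815844 and 23205388 at E5 and between 9874339 and 13740392 at E7.

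The third libraries of both corneal stages stood apart from their labels over all genes. The library labelled E7 3 correlated at 0.985 and 0.981 with E5 libraries 1 and 2 and at 0.926 and 0.937 with E7 libraries 1 and 2 (Pearson, log2(CPM + 1), a description across genes). The library labelled E5 3 correlated at 0.975 and 0.981 with E7 libraries 1 and 2 and at 0.941 and 0.948 with E5 libraries 1 and 2. Labels were kept as given. Whether these 2 libraries were exchanged was not tested, so a value at E5, at E7 or between them holds for the libraries as labelled. Changed calls are given without both. They were left out for their profiles in these same data, which itself lowers the spread. Calls and adjusted p-values without them are therefore descriptions and no independent support. All 10 corneal matrix genes with an entry of a list of 11, keratocan (KERA) and lumican (LUM) among them, summed to 3557 to 12559.6 FPKM in the corneal libraries, against 823 to 888 FPKM at E3. The crest factors SOX10, FOXD3 and PAX3 lay between 0 and 1.0 FPKM in the corneal libraries and between 8.26 and 17.8 FPKM at E3. The other 2 genes of that list did not separate the stages: TFAP2A had 5.07 to 28.2 FPKM in the corneal libraries, against 18.5 to 21.3 FPKM at E3, and ETS1 had 14.9 to 60.6 FPKM in the corneal libraries, against 40.6 to 47.0 FPKM at E3. Markers of red cells (8 of 11 with an entry) summed to 3.4 to 416 FPKM in the corneal libraries, against 6276 to 7275 FPKM at E3, and those of vascular endothelium (7 of 7) to 2.90 to 10.6 against 87.2 to 103 FPKM. No marker of either list was at 0 in all 6 corneal libraries, and of both lists only the globin HBBA was at 0 in all E3 libraries. Markers of neural retina and neurons (7 of 9) summed to 3.3 to 5.7 FPKM in the corneal libraries, against 15.9 to 17.9 at E3. Those of corneal epithelium and surface ectoderm (9 of 11) summed to 28.2 to 33.0 FPKM at E3. They summed to 77.6, 172 and 94.4 FPKM in the library labelled E5 3 and E7 libraries 1 and 2. In E5 libraries 1 and 2 and the library labelled E7 3 they summed to 9.1, 7.3 and 12.0 FPKM. Red cells, vessels and neurons move with the stage in every comparison against E3. The part of all these cell types in the results was not tested. In such bulk samples, fewer cells of a type and less RNA per cell cannot be told apart.

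All tested genes of the translocon, of signal peptidase and of the KDEL receptors were called higher in the cornea than in the E3 crest, as were most COPI and PDIA genes and 7 of 13 in the COPII group. With library size alone as the scaling, 7 of 8 translocon, 2 of 4 signal peptidase and both KDEL receptor genes were higher. So were 3 of 7 COPI, 2 of 4 PDIA and 6 of 13 COPII genes, and 1918 of all 11748 genes. The largest rises were those of the cargo-binding coat protein SEC24D and of the retrieval receptor KDELR3. In the mean of E5 and E7 against E3, 34 of the 57 members tested were higher, where 20.9% of all genes were, and 5 were lower, where 20.8% of all genes were (edgeR quasi-likelihood F-test, Benjamini-Hochberg adjusted p under 0.05 over all genes tested, as for every call below). The median log2 fold change was 0.43 over the members and 0.03 over all genes. Most changes were small: 7 of the 34 rises had a log2 fold change of 1 or more and 27 lay under 1, the lowest at 0.17. The falls ran between -0.47 and -0.21. Of the 39 calls, 28 held in each of the 9 fits that left out 1 library, 27 of them higher and the other being the fall of TMED5. Calls of all genes were not followed through these fits, so no share of all genes stands beside this count.

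At E5 against E3, 33 members were higher (all genes 18.5%) and 1, TMED5, was lower (all genes 17.7%), with a median of 0.52. At E7 against E3, 28 were higher (all genes 17.3%) and 3 were lower (all genes 16.4%), with a median of 0.39. The 3 lower at E7 were SEC31B, SSRP1 and TMED5. These comparisons share the E3 libraries. On CPM (counts scaled to library size) with TMM factors, which scale libraries so that most genes do not change, all 6 corneal libraries lay above all 3 E3 libraries for 37 members (all genes 21.7%) and below them for 4 members, SRP68, TMED5, SEC31B and SRP14 (all genes 22.7%).

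Without the libraries labelled E5 3 and E7 3, 41 members were higher in the cornea (all genes 26.2%) and 6 were lower (all genes 25.7%). Of the 39 calls made with all 9 libraries, 38 were kept there, the exception being COPG2. How many calls of all genes were kept there was not counted. Another 9 members were called there and not with all 9 libraries, PDIA4, SEC16A, SEC13, COPA, SEC22A, SEC23IP and SRP54 higher and SEC24B and TANGO2 lower. These calls came with a lower spread: SEC16A had a log2 fold change of 0.44 (SE 0.17) with all libraries and 0.41 (SE 0.06) there. Summed over the 61 members with an entry, levels were 4155, 4255 and 4257 FPKM at E3, 5891, 6115 and 5142 at E5 and 5447, 5193 and 5882 at E7. E5 libraries 1 and 2 and the library labelled E7 3 were the highest, and every corneal library lay above every E3 library. The matrix genes summed above were highest in the same 3 libraries, at 888, 823 and 826 FPKM at E3, 12498, 10599 and 3713 at E5 and 4503, 3557 and 12559.6 at E7. The scaling matters for the balance of small changes. With library size alone, 27 members were higher and 8 lower, where 1918 and 3338 of all 11748 genes were. The median over all genes moved to -0.13. That scaling ended the rises of COPB1, COPE, PDIA6, SEC11C, SEC24C, SEC63 and SPCS2, with adjusted p between 0.0508 and 0.889, and called SEC24B, SRP68 and TANGO2 lower.

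**Figure D1:**
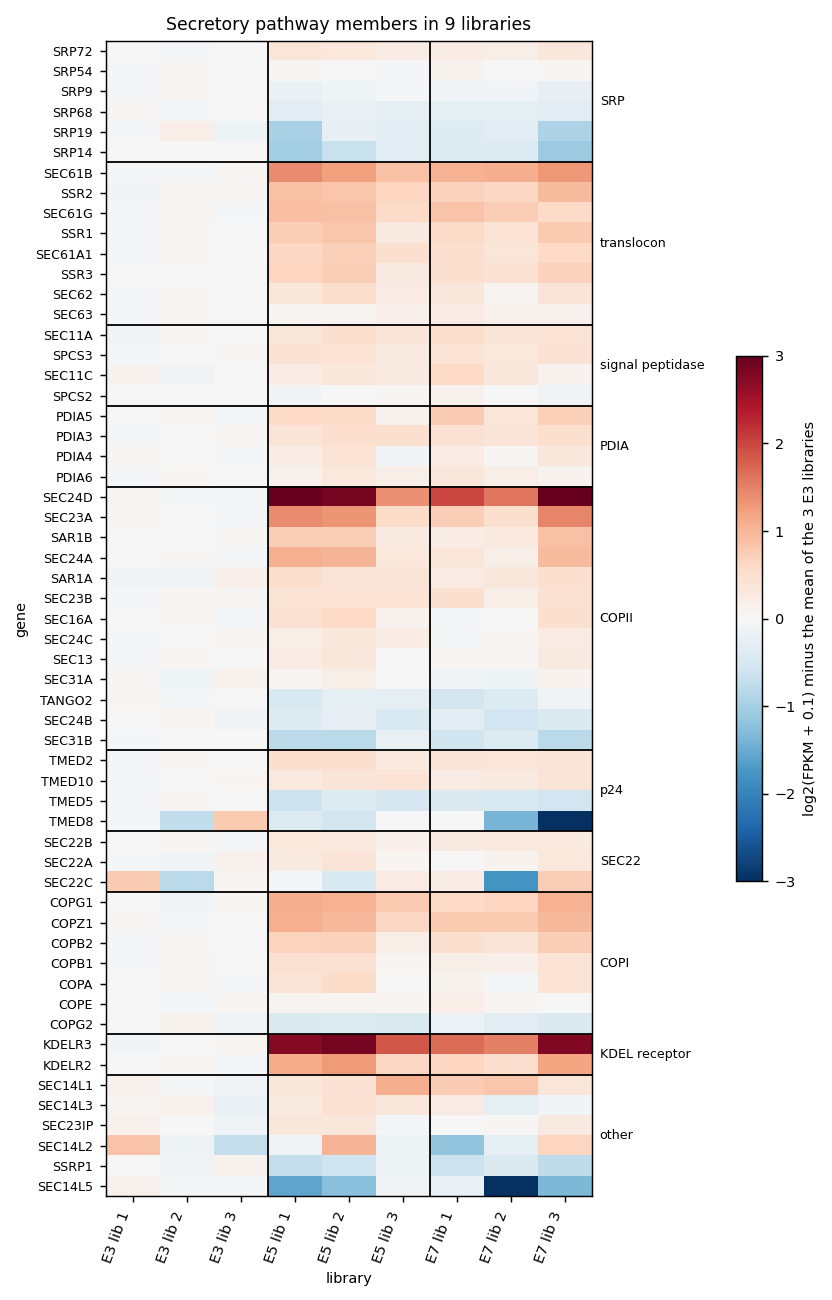
Each row is 1 of the 57 members tested, ordered by role, and each column 1 library, with stages in order of age; colour gives log2(FPKM + 0.1) minus the mean of the 3 E3 libraries, capped at 3 in both directions. The 8 translocon rows and both KDEL receptor rows are on the red side in all 6 corneal columns, palest for SEC63, and E5 libraries 1 and 2 and the library labelled E7 3 are the reddest for SEC24D, SEC23A and KDELR3.

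**Figure D2:**
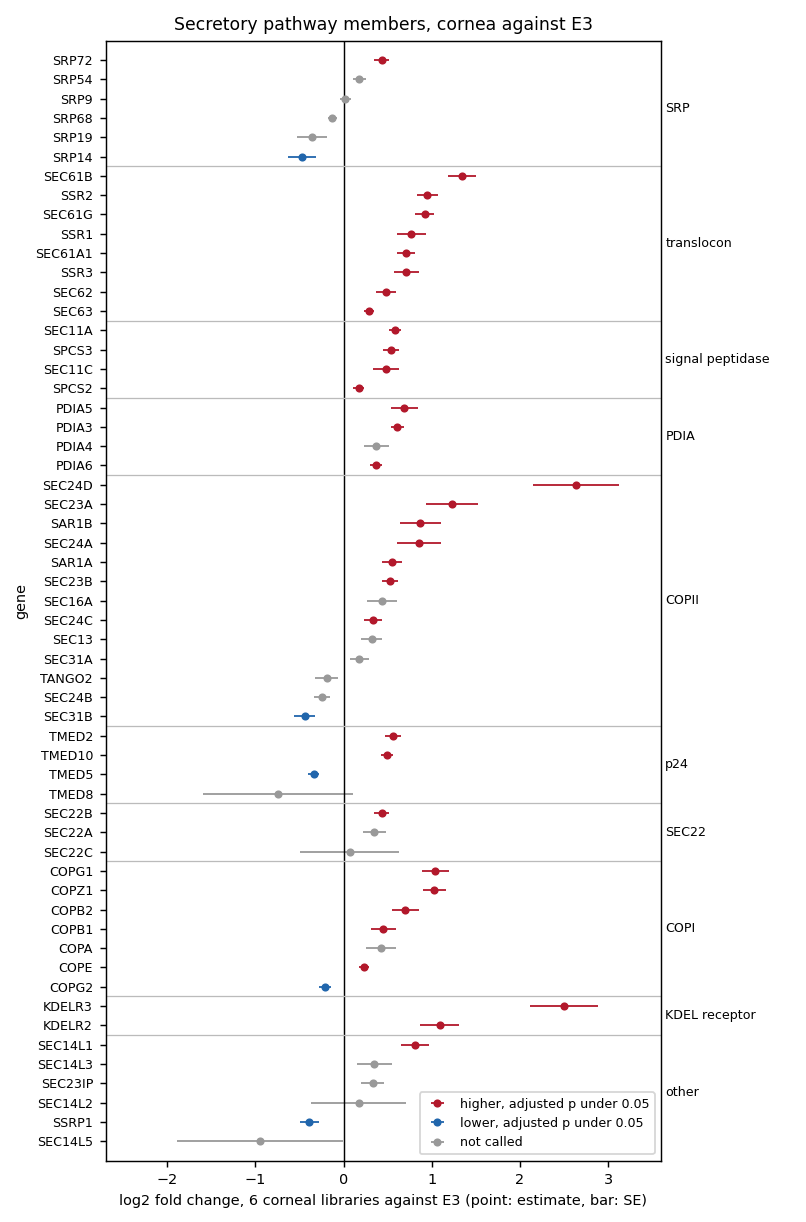
Points give the log2 fold change of the 6 corneal libraries against the 3 E3 libraries for each member tested, with bars of 1 SE, grouped by role; red marks 34 members called higher, blue 5 called lower and grey those not called. SEC24D at 2.64 and KDELR3 at 2.50 lie far to the right of the others, and the SRP points straddle 0.

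The SRP meets signal peptides as they leave the ribosome. Of its 6 proteins tested, 1 rose and 1 fell in the cornea, near the shares of all genes (20.9% and 20.8%), and the median log2 fold change was -0.06. SRP72, which with SRP68 forms the large heterodimer of the particle, rose by 0.43 ± 0.08, adjusted p = 0.00445 (log2 fold change ± SE). It had 69.7 to 78.7 FPKM in the 6 corneal libraries, against 60.2 to 62.4 in the 3 E3 libraries, and the groups did not overlap. SRP14, which with SRP9 forms the part that slows elongation, fell by 0.47 ± 0.16 (adjusted p = 0.0418). Its levels were 156, 159.8 and 156 at E3, 77.8, 98.8 and 124 at E5 and 121, 119 and 73.8 FPKM at E7, so that all corneal libraries lay below E3 and the lowest were those in which SEC24D was highest. Its call was lost without any 1 of the E3 libraries or without E5 1, E5 2 or E7 2, with adjusted p up to 0.125. The call was also lost in the fit on entries named by gene number only, with those named by transcript left out (-0.41, adjusted p = 0.0726). SRP14 itself has 1 entry, named by gene number, so its own counts were the same there, while 6164 genes were tested. SRP19, needed to assemble the particle, had 48.2 to 79.7 FPKM in the 6 corneal libraries, against 85.8 to 109 in the 3 E3 libraries. These FPKM ranges did not overlap, but the log2 fold change with TMM factors was -0.36 ± 0.17, adjusted p = 0.129. SRP54, the subunit that binds the signal peptide, had 0.18 ± 0.07, adjusted p = 0.0684, and without the libraries labelled E5 3 and E7 3 it rose by 0.19 ± 0.06, adjusted p = 0.0344. SRP68 had -0.13 ± 0.05, adjusted p = 0.0855, and SRP9 had 0.02 ± 0.06, adjusted p = 0.807. FPKM is scaled to the library total and the fold changes to TMM factors, so members near the all-gene median can read lower on FPKM.

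All 8 translocon members tested rose at E5, at E7 and in both together. They are 3 SEC61 subunits, 3 subunits of the associated TRAP complex (SSR) and the partners SEC62 and SEC63. For both stages together, all 8 calls held in each of the 9 fits without 1 library. Those fits were read gene by gene for that contrast and for members only. Over all genes 18.5% rose at E5, 17.3% at E7 and 20.9% in the cornea. With library size alone 7 members of this group rose at E5, 6 at E7 and 7 in the cornea. Of all 11748 genes 1652, 1628 and 1918 did under that scaling. SEC63 was not called there in any of these comparisons and SEC62 not at E7. The median log2 fold change in the cornea was 0.74. Summed levels were 971, 1017 and 1012 FPKM at E3, 1839, 1823 and 1424 at E5 and 1621, 1545 and 1769.6 at E7, with no overlap between E3 and either corneal stage.

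SEC61B (gene ID 420997), a small subunit of the channel, rose most. It had 193, 189 and 209 at E3, 528, 465 and 364 at E5 and 403, 422 and 487 FPKM at E7, a log2 fold change in the cornea of 1.34 ± 0.16, adjusted p = 0.000427. The corneal mean was 445 ± 59.968 FPKM (SD, n = 6), against 197 ± 10.5 FPKM at E3 (SD, n = 3). SEC61G (gene ID 776639), the other small subunit, had 159, 176 and 161 at E3, 308, 305 and 246 at E5 and 299, 276 and 246 FPKM at E7 (0.92 ± 0.11, adjusted p = 0.000502). SEC61A1 (gene ID 416023), which forms the pore itself, had 74.0, 79.7 and 75.1 at E3, 117, 125 and 107 at E5 and 108, 98.6 and 115 FPKM at E7, a smaller rise of 0.71 ± 0.10, adjusted p = 0.00105. Corneal and E3 libraries did not overlap for any of the 3 subunits.

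TRAP helps certain nascent chains into the channel. SSR2 (gene ID 425656) had 92.1, 102 and 100.4 at E3, 179, 175 and 154 at E5 and 159, 151 and 190.1 FPKM at E7 (0.95 ± 0.12, adjusted p = 0.000754), and SSR1 (gene ID 420871) had 204, 217 and 215 at E3, 353, 375 and 257 at E5 and 316, 282 and 365 FPKM at E7 (0.77 ± 0.16, adjusted p = 0.00645). SSR3 had 196 to 270.4 FPKM in the 6 corneal libraries, against 163 to 164 in the 3 E3 libraries, a rise of 0.71 ± 0.14, adjusted p = 0.00434. The lowest corneal value of SSR1 and of SSR3 was that of the library labelled E5 3. SEC62 and SEC63, which serve post-translational import and channel gating, rose least, by 0.48 ± 0.11, adjusted p = 0.0102 and by 0.29 ± 0.06, adjusted p = 0.00495.

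Signal peptidase removes the signal peptide during import. All 4 of its tested genes rose in the cornea (all genes 20.9%), with a median log2 fold change of 0.51. Only SEC11A and SPCS3 rose at E5 (all genes 18.5%) and at E7 (all genes 17.3%) taken singly. SEC11A, the main catalytic subunit by level, had 73.8, 80.8 and 78.4 at E3, 98.2, 108 and 101 at E5 and 113, 102 and 104 FPKM at E7 (0.58 ± 0.07, adjusted p = 0.00061). SPCS3, a non-catalytic subunit needed for activity, had 70.1 to 79.0 FPKM in the 6 corneal libraries, against 56.4 to 59.8 in the 3 E3 libraries (0.54 ± 0.09, adjusted p = 0.00205). The second catalytic subunit SEC11C had 11.1 to 15.5 FPKM in the 6 corneal libraries, against 9.56 to 11.1 in the 3 E3 libraries (0.48 ± 0.15, adjusted p = 0.031). Its call was lost without any 1 of the E3 libraries, E5 1, E5 2 or E7 1, with adjusted p up to 0.116. SPCS2 was called at 0.17 ± 0.06, adjusted p = 0.0419, yet its FPKM means were 101 ± 6.19 in the cornea (SD, n = 6) and 102 ± 1.41 at E3 (SD, n = 3). That call rests on the TMM factors: with library size alone its log2 fold change was 0.01 (adjusted p = 0.889), and leaving out any of 8 single libraries also ended it.

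The PDIA enzymes form and reshuffle disulfide bonds in the ER. Of 4 tested, 3 rose in the cornea (all genes 20.9%), with a median log2 fold change of 0.49. PDIA3 (gene ID 373899), which works on glycoproteins with calnexin and calreticulin, had the highest mean level of the members in the cornea and at E3, with 384, 386 and 406 at E3, 516, 555 and 546 at E5 and 534, 512 and 547 FPKM at E7, though SEC61B was higher in E5 library 1. Its rise of 0.61 ± 0.07, adjusted p = 0.000403 had the smallest adjusted p of all members, and corneal and E3 libraries did not overlap. PDIA5 had 37.6, 39.6 and 37.4 at E3, 57.5, 55.6 and 41.6 at E5 and 64.9, 49.4 and 62.4 FPKM at E7 (0.69 ± 0.15, adjusted p = 0.00758), with the library labelled E5 3 closest to E3. PDIA6 had 239.9 to 281 FPKM in the 6 corneal libraries, against 219 to 227 in the 3 E3 libraries (0.37 ± 0.07, adjusted p = 0.00437). With library size alone PDIA6 was not called (0.21, adjusted p = 0.0508). PDIA4 was not called (0.37 ± 0.14, adjusted p = 0.0618). Its 144 FPKM in the library labelled E5 3 lay below all 3 E3 libraries, and without the libraries labelled E5 3 and E7 3 it rose by 0.39 ± 0.07, adjusted p = 0.00327.

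The COPII coat showed the widest spread. The 13 members tested include the exit site scaffold SEC16A and, by its name alone, TANGO2. Of these, 7 rose (all genes 20.9%) and 1 fell (all genes 20.8%) in the cornea. The median log2 fold change was 0.44, and single values ran between -0.44 and 2.64. At E5 8 rose (all genes 18.5%), and at E7 4 rose (all genes 17.3%) and 1 fell (all genes 16.4%).

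SEC24 proteins bind cargo, and the 4 paralogues parted. SEC24D (gene ID 422683) had 14.4, 13.1 and 13.4 FPKM in E3 libraries 1, 2 and 3, 109, 101 and 35.4 in those labelled E5 and 54.8, 41.5 and 110.0 in those labelled E7. All corneal values lay above E3, and within the cornea E5 1, E5 2 and E7 3 stood at 101 FPKM or more while the other 3 libraries stayed at 54.8 or less. The corneal mean was 75.2 ± 35.1 FPKM (SD, n = 6), against 13.6 ± 0.699 FPKM at E3 (SD, n = 3), and the fitted rise was 2.64 ± 0.49, adjusted p = 0.00352, or 6.23-fold. SEC24A (gene ID 416313) had 16.2, 16.4 and 15.5 at E3, 33.6, 32.8 and 20.0 at E5 and 20.6, 18.2 and 31.1 FPKM at E7, with no overlap (0.86 ± 0.25, adjusted p = 0.0241). Its call was lost without any 1 of the E3 libraries, with adjusted p up to 0.0837. SEC24C (gene ID 423742) had 39.8, 41.6 and 42.7 at E3, 47.7, 52.8 and 48.0 at E5 and 39.6, 43.0 and 49.3 FPKM at E7 (0.33 ± 0.10, adjusted p = 0.0308), and the library labelled E7 1 lay just below the lowest E3 value. Its call was lost without any 1 of the E3 libraries, E5 1 or E5 2, with adjusted p up to 0.112. SEC24B (gene ID 422523) had 18.0, 18.7 and 16.9 at E3, 13.6, 15.1 and 12.9 at E5 and 14.0, 12.0 and 13.1 FPKM at E7. It was lower in every corneal library on FPKM, but the test with TMM factors gave -0.25 ± 0.09, adjusted p = 0.0554, whereas library size alone gave -0.41 (adjusted p = 0.00392). Without the libraries labelled E5 3 and E7 3 it fell by 0.24 ± 0.08 (adjusted p = 0.0418).

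As a share of the summed FPKM of the 4 SEC24 genes, SEC24D took 30.4 to 54.0% in the corneal libraries, against 14.6 to 16.3% at E3. SEC24B took 6.5 to 11.1% in the corneal libraries, against 19.1 to 20.8% at E3, and SEC24C took 23.4 to 41.2% in the corneal libraries, against 45.0 to 48.3% at E3. SEC24A took 15.3 to 17.2% in the corneal libraries, against 17.5 to 18.3% at E3. SEC24C was the most abundant paralogue in each E3 library, and SEC24D in the corneal libraries other than those labelled E5 3 and E7 2. Paralogues that are alike in sequence may share reads, and how the authors' counting treated such reads is not given in the sources used here. Levels and shares cover matched entries only, so that entries of a gene under an unmatched transcript name are missing from them.

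SEC23 is the inner coat partner of SEC24 and activates the SAR1 GTPase. SEC23A (gene ID 423335) had 24.5, 23.96 and 22.8 at E3, 63.9, 59.6 and 34.6 at E5 and 39.7, 33.4 and 66.2 FPKM at E7, all corneal values above E3 (1.23 ± 0.30, adjusted p = 0.0116). SEC23B (gene ID 416724) had 33.7, 35.8 and 35.9 at E3, 46.5, 47.0 and 46.9 at E5 and 48.7, 39.8 and 48.1 FPKM at E7 (0.53 ± 0.09, adjusted p = 0.00286). Fold changes in the cornea were 2.35 for SEC23A and 1.44 for SEC23B, and SEC23A took 42.5 to 57.9% in the corneal libraries, against 38.8 to 42.1% at E3 of their summed FPKM. Whether the fold changes of paralogues differ from each other was not tested.

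**Figure D3:**
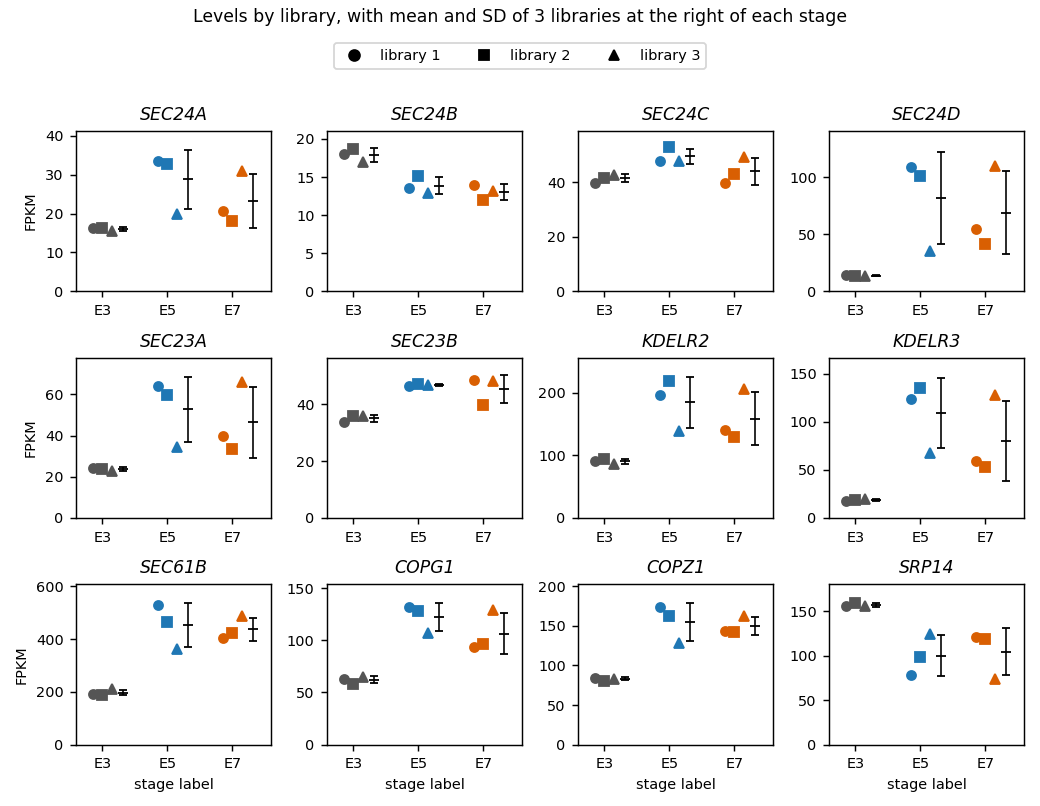
FPKM of 12 members in each library, with marker shape for library number, and the mean and SD of 3 libraries beside each stage; all axes start at 0. For SEC24D, SEC23A and KDELR3 the triangle of E5 sits below its circle and square and the triangle of E7 above them, while SRP14 shows the opposite order.

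SAR1 is the GTPase that starts coat assembly. SAR1A had 72.4, 72.4 and 84.1 at E3, 109, 99.2 and 98.9 at E5 and 90.3, 95.7 and 108 FPKM at E7 (0.55 ± 0.11, adjusted p = 0.00462). SAR1B, tied in humans to export of large lipoproteins, had 29.0, 28.9 and 29.8 at E3, 49.0, 48.9 and 35.3 at E5 and 33.9, 35.8 and 53.8 FPKM at E7 (0.87 ± 0.23, adjusted p = 0.0185), and its call was lost without any 1 of the E3 libraries (adjusted p up to 0.0634). Their shares of summed SAR1 FPKM overlapped between cornea and E3. The outer coat moved little. SEC31A had 72.4, 64.7 and 75.5 at E3, 75.3, 80.5 and 71.8 at E5 and 65.6, 63.8 and 76.4 FPKM at E7 and was not called (0.18 ± 0.11, adjusted p = 0.2), except on entries named by gene number only (0.45, adjusted p = 0.0295). Its partner SEC13, also a nuclear pore protein, had 114 to 144 FPKM in the 6 corneal libraries, against 112 to 118 in the 3 E3 libraries (0.32 ± 0.12, adjusted p = 0.0568). SEC31B, the minor paralogue, had 12.1, 12.6 and 12.6 at E3, 7.12, 7.08 and 10.7 at E5 and 8.16, 9.27 and 7.02 FPKM at E7, with no overlap, and fell by 0.44 ± 0.12 (adjusted p = 0.0216). That call too was lost without any 1 of the E3 libraries (adjusted p up to 0.0819). SEC16A, which organises ER exit sites, had 17.7, 18.4 and 17.3 at E3, 24.3, 26.9 and 19.1 at E5 and 17.0, 17.7 and 24.8 FPKM at E7 and was not called (0.44 ± 0.17, adjusted p = 0.0722). Without the libraries labelled E5 3 and E7 3, SEC16A and SEC13 rose, by 0.41 ± 0.06, adjusted p = 0.000824 and by 0.32 ± 0.05, adjusted p = 0.00174. TANGO2, whose molecular role is not settled, had 5.21 to 7.16 FPKM in the 6 corneal libraries, against 7.42 to 8.12 in the 3 E3 libraries (-0.19 ± 0.13, adjusted p = 0.28), and without the libraries labelled E5 3 and E7 3 it fell by 0.28 ± 0.10 (adjusted p = 0.0473).

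p24 proteins (TMED) sort cargo into vesicles in both directions. Of 4 tested, 2 rose (all genes 20.9%) and 1 fell in the cornea, the fall lying near the share of all genes (20.8%). TMED2 (gene ID 416821) had 125, 135 and 129 at E3, 181, 184 and 158 at E5 and 169, 166 and 170.0 FPKM at E7 (0.56 ± 0.09, adjusted p = 0.0016), and TMED10 (gene ID 423362), its usual partner, had 119, 124 and 128 at E3, 151, 161 and 165 at E5 and 147, 149 and 162 FPKM at E7 (0.49 ± 0.07, adjusted p = 0.00145). TMED5 (gene ID 424499) had 109, 114 and 112 at E3, 72.8, 84.0 and 78.5 at E5 and 82.6, 81.6 and 75.2 FPKM at E7, so that every corneal library lay below E3. Its fall of 0.34 ± 0.06 (adjusted p = 0.00336) was the only fall among members that held in each fit without 1 library. TMED8 was low, at 0 to 3.56 FPKM, and not called. SEC22B, a SNARE of ER to Golgi vesicles, had 53.4 to 59.6 FPKM in the 6 corneal libraries, against 46.7 to 49.7 in the 3 E3 libraries, and rose by 0.43 ± 0.08, adjusted p = 0.00313. SEC22A (0.35 ± 0.13, adjusted p = 0.0634) and SEC22C (0.07 ± 0.56, adjusted p = 0.931), which share its N-terminal domain, were not called. Without the libraries labelled E5 3 and E7 3, SEC22A rose by 0.34 ± 0.08, adjusted p = 0.0123. SEC22C stood at 0.490 to 3.37 FPKM.

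COPI coats vesicles that run back from the Golgi to the ER. Of 7 coat genes tested, 5 rose (all genes 20.9%) and 1 fell (all genes 20.8%) in the cornea, with a median log2 fold change of 0.45. Their summed levels were 543, 547 and 547 FPKM at E3, 805, 804 and 645 at E5 and 701, 668 and 787 at E7. COPG1 (gene ID 416014), a gamma subunit, had 62.7, 58.4 and 65.0 at E3, 132, 128 and 107 at E5 and 93.8, 96.2 and 129 FPKM at E7 (1.04 ± 0.15, adjusted p = 0.0013). COPZ1 (gene ID 107055416), the zeta subunit, had 84.7, 80.9 and 83.2 at E3, 175, 163 and 129 at E5 and 143, 143 and 163 FPKM at E7 (1.03 ± 0.13, adjusted p = 0.000731). Corneal and E3 libraries did not overlap for either. COPB2 (gene ID 424823), the beta prime subunit, had 105 to 151 FPKM in the 6 corneal libraries, against 89.3 to 93.3 in the 3 E3 libraries (0.70 ± 0.15, adjusted p = 0.00758).

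The other subunits moved less. COPB1, the beta subunit, had 69.8, 76.4 and 71.7 at E3, 99.3, 100.2 and 75.6 at E5 and 81.9, 80.6 and 95.8 FPKM at E7 (0.45 ± 0.14, adjusted p = 0.0283), the library labelled E5 3 lying below the highest E3 value. Its call was lost without any 1 of the E3 libraries, E5 1 or E5 2 (adjusted p up to 0.0973). COPE, the epsilon subunit, rose by 0.23 ± 0.06, adjusted p = 0.0204 with FPKM ranges that overlapped, 117 to 134 FPKM in the 6 corneal libraries, against 113 to 121 in the 3 E3 libraries. That call was lost without E3 1 or E3 2 (adjusted p up to 0.0872) and with library size alone (0.08, adjusted p = 0.376). COPA, the alpha subunit, was not called (0.42 ± 0.17, adjusted p = 0.076), and rose by 0.41 ± 0.06, adjusted p = 0.0015 without the libraries labelled E5 3 and E7 3. COPG2 (gene ID 416685), the second gamma subunit, had 46.5, 49.7 and 43.4 at E3, 34.5, 35.6 and 34.6 at E5 and 41.2, 36.9 and 34.1 FPKM at E7. On FPKM all corneal values lay below E3, but the fall of 0.21 ± 0.07 (adjusted p = 0.0477) was lost in 8 of the 9 fits without 1 library, with adjusted p up to 0.187, and was -0.11 (adjusted p = 0.254) on entries named by gene number only. COPG1 took 69.5 to 79.3% in the corneal libraries, against 54.0 to 59.9% at E3 of the summed COPG FPKM.

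**Figure D4:**
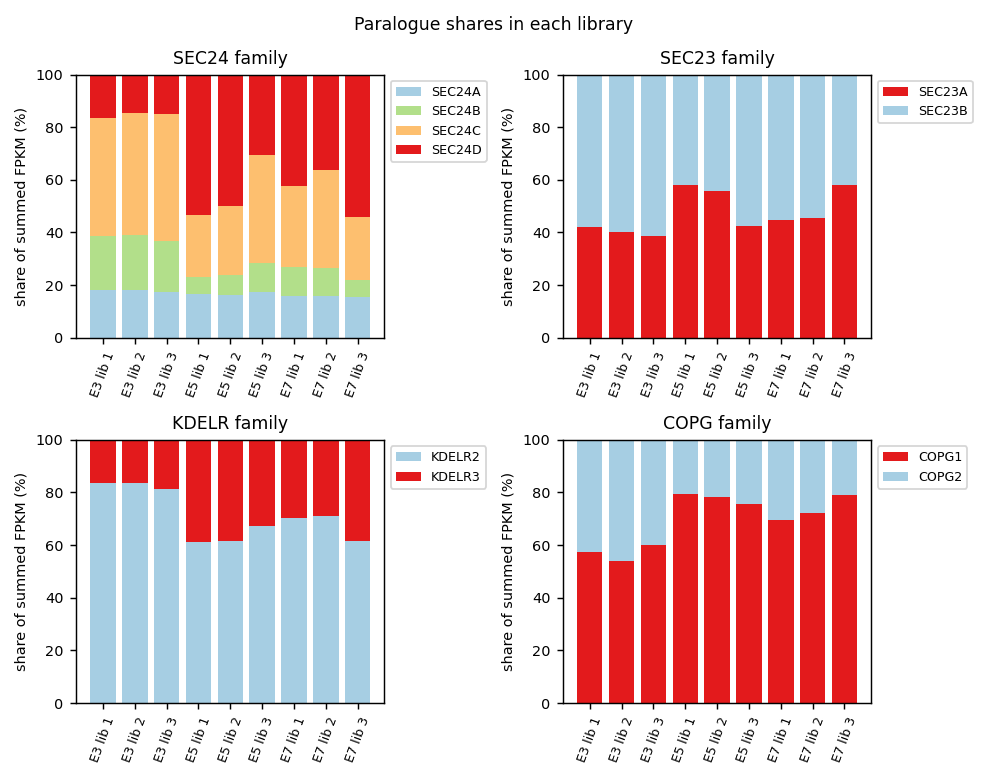
Stacked bars give each paralogue's share of the summed FPKM of its family in each library, for SEC24, SEC23, KDELR and COPG. The red parts, SEC24D, SEC23A, KDELR3 and COPG1, are larger in every corneal library than in every E3 library, with SEC24D between 30.4 and 54.0% in the cornea.

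KDEL receptors catch ER chaperones that carry a KDEL tail and send them back. Both genes tested rose at E5 (all genes 18.5%), at E7 (all genes 17.3%) and in the cornea as a whole (all genes 20.9%). KDELR3 (gene ID 418026) had 17.7, 18.5 and 19.6 FPKM in E3 libraries 1, 2 and 3, 124, 136 and 67.8 in those labelled E5 and 59.6, 53.0 and 128 in those labelled E7. No corneal library overlapped E3, and the mean was 94.7 ± 38.4 FPKM in the cornea (SD, n = 6), against 18.6 ± 0.947 FPKM at E3 (SD, n = 3). The rise was 2.50 ± 0.39, adjusted p = 0.00167, or 5.67-fold. KDELR2 (gene ID 771927) had 90.1, 94.4 and 86.6 at E3, 196, 219 and 139 at E5 and 140.4, 129 and 206 FPKM at E7 (1.09 ± 0.22, adjusted p = 0.00542), also with no overlap. KDELR2 stayed the more abundant, but KDELR3 took 29.1 to 38.8% in the corneal libraries, against 16.4 to 18.5% at E3 of their summed FPKM. Both were highest in E5 1, E5 2 and the library labelled E7 3.

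A further 6 members fit the symbol rule but lie outside these groups. SEC14L1, of a family of lipid-binding proteins, rose by 0.81 ± 0.16, adjusted p = 0.00456, with 27.2, 24.5 and 23.3 at E3, 31.7, 33.9 and 53.0 at E5 and 42.3, 44.7 and 31.9 FPKM at E7. That call was lost on entries named by gene number only (1.19, adjusted p = 0.174). It was highest in the library labelled E5 3, followed by E7 libraries 2 and 1. SSRP1, a subunit of the histone chaperone FACT, had 128, 120.3 and 139.6 at E3, 78.2, 85.8 and 116 at E5 and 81.8, 95.1 and 76.5 FPKM at E7 and fell by 0.39 ± 0.11 (adjusted p = 0.024). That call was lost without any 1 of the E3 libraries or without E5 2 (adjusted p up to 0.106), and on entries named by gene number only (-0.23, adjusted p = 0.135). SEC23IP, which binds SEC23 at exit sites, had 13.6 to 17.6 FPKM in the 6 corneal libraries, against 12.8 to 15.1 in the 3 E3 libraries (0.33 ± 0.13, adjusted p = 0.0831), and without the libraries labelled E5 3 and E7 3 it rose by 0.34 ± 0.07, adjusted p = 0.00441. SEC14L2, SEC14L3 and SEC14L5 stood at 5.45 FPKM or less in every library, and none was called.

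Between the corneal stages as labelled, no member was called. The E7 samples were endothelium taken with keratocytes and the E5 samples endothelium, so stage and cell content cannot be told apart in this contrast. By edgeR, 0 of 57 were higher and 0 lower at E7 than at E5 (all genes 0.0% and 0.0%). DESeq2 likewise called no member, though it called 5 of all 11748 genes higher and 6 lower. At an unadjusted p under 0.05 by edgeR there were 0 members, and 279 of all genes. On CPM with TMM factors, every E7 library lay above every E5 library for 0 members (all genes 2.37%) and below them for 2, SEC14L3 and SRP9 (all genes 2.58%). The median log2 fold change was -0.09 over the members and -0.01 over all genes. SEC24D averaged 68.8 ± 36.3 FPKM at E7 and 81.7 ± 40.4 FPKM at E5 (SD, n = 3 each), and KDELR3 80.3 ± 41.7 FPKM at E7 and 109 ± 36.3 FPKM at E5. In both genes the spread within a stage was larger than the difference between stages, and it came from the third library of each.

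Without the libraries labelled E5 3 and E7 3, which leaves 2 libraries at each corneal stage, 24 members were lower at E7 (all genes 11.4%) and 1 was higher (all genes 11.3%). Those 2 were left out for their profiles in these same data, which itself lowers the spread within a stage. For KDELR3 the SE was 0.40 with all 9 libraries and 0.10 without them. The adjusted p-values of this fit are therefore a description and not a test of stage. The median was -0.25 over the members and -0.01 over all genes. The lower members were 8 of 13 of the COPII group, 5 of 7 COPI, 5 of 8 translocon, both KDEL receptors, and SRP72, SEC22A, TMED2 and SEC23IP, while no signal peptidase or PDIA gene was called. KDELR3 fell most (-1.32 ± 0.10, adjusted p = 0.000248), with 59.6 and 53.0 FPKM in E7 libraries 1 and 2, against 124 and 136 FPKM in E5 libraries 1 and 2. SEC24D fell by 1.23 ± 0.14, adjusted p = 0.00126, SEC24A by 0.89 ± 0.08, adjusted p = 0.00069 and SEC23A by 0.87 ± 0.10, adjusted p = 0.00152. KDELR2 (-0.73 ± 0.08, adjusted p = 0.00147) and SAR1B (-0.70 ± 0.07, adjusted p = 0.00106) followed. SEC14L1 was higher (0.29 ± 0.08, adjusted p = 0.0449). On FPKM all 7 were still above E3 in E7 libraries 1 and 2.

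Markers of other cell types differed in this contrast too, where 11.3% of all genes were higher at E7 and 11.4% lower. Of the markers of corneal epithelium and surface ectoderm, 8 of 8 tested were higher, with a median log2 fold change of 4.12. The 9 of 11 with an entry, among them EPCAM and KRT24, summed to 172 and 94.4 FPKM in E7 libraries 1 and 2, against 9.10 and 7.30 FPKM in E5 libraries 1 and 2. They summed to 12.0 FPKM in the library labelled E7 3 and to 77.6 FPKM in that labelled E5 3. The keratin KRT5 stayed at 0.08 FPKM or less in all 9 libraries. The matrix genes ran the other way, with 9 of 10 tested lower (median -1.67). They summed to 4503 and 3557 FPKM in E7 libraries 1 and 2, against 12498 and 10599 FPKM in E5 libraries 1 and 2. Of the 5 cartilage genes tested, 1 was higher and 1 lower at E7. COL2A1, which is made by cartilage and by embryonic corneal epithelium, had 1888 and 922 FPKM in E7 libraries 1 and 2, against 305 and 178 FPKM in E5 libraries 1 and 2. The cartilage proteoglycan ACAN had 0.170 and 0.0800 FPKM in E7 libraries 1 and 2, against 1.34 and 0.890 FPKM in E5 libraries 1 and 2. Red cell markers, 5 of 6 tested higher, summed to 416 and 68.9 FPKM in E7 libraries 1 and 2, against 10.6 and 3.4 FPKM in E5 libraries 1 and 2. Vascular endothelium, with 4 of 7 tested higher and 1 lower, summed to 5.50 and 9.90 FPKM in E7 libraries 1 and 2, against 3.4 and 3.80 FPKM in E5 libraries 1 and 2. Leukocyte markers, 1 of 3 tested higher, summed to 53.9 and 31.9 FPKM in E7 libraries 1 and 2, against 8.30 and 7.6 FPKM in E5 libraries 1 and 2, most of it CD74. Pigmented epithelium, 1 of 6 tested higher, summed to 19.7 and 23.1 FPKM in E7 libraries 1 and 2, against 13.4 and 11.9 FPKM in E5 libraries 1 and 2. The calls of the cartilage, leukocyte and pigmented epithelium lists are too few to set apart from the shares of all genes. The part of these cells, and of the keratocytes taken with the endothelium at E7, in the lower member levels at E7 was not tested.

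**Figure D5:**
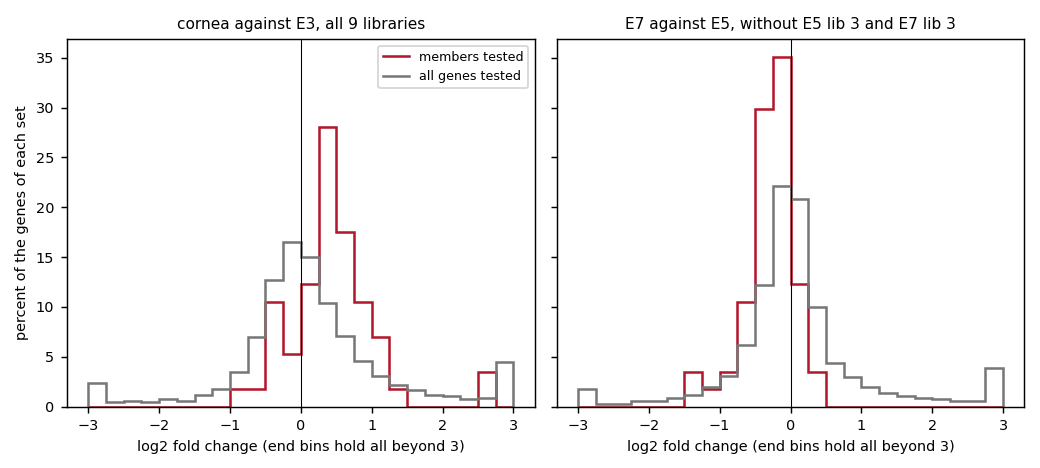
Outlines give the percentage of members tested and of all genes tested in each bin of log2 fold change, for cornea against E3 with all 9 libraries (left) and for E7 against E5 without the libraries labelled E5 3 and E7 3 (right). The members lie to the right of all genes on the left panel, with medians of 0.43 and 0.03, and to the left of them on the right panel, with medians of -0.25 and -0.01.

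Genes of the same pathway outside the symbol rule, 148 with an entry in 6 lists, were read in the same fit. Over all genes 20.9% were higher and 20.8% lower in the cornea. Of the 4 ER lists, 3 had a median log2 fold change of 0.43 or more, and that of the SRP receptor list was 0.00. Of oligosaccharyltransferase genes, which attach N-glycans, 7 of 10 rose and 0 fell (median 0.54), including the catalytic subunit STT3A (0.79, adjusted p = 0.000216) and TUSC3 (0.79, adjusted p = 0.0353). Levels of TUSC3 were low and overlapped, at 1.69 to 3.29 FPKM in the corneal libraries and 1.4 to 1.8 FPKM at E3. Of ER folding and redox genes, 20 of 34 rose and 2 fell (median 0.43). SERPINH1 (HSP47), the collagen chaperone, had 53.0, 30.9 and 41.5 at E3, 280.4, 229.9 and 121 at E5 and 168, 121 and 292 FPKM at E7 (2.45 ± 0.42, adjusted p = 0.00253), and the prolyl isomerase FKBP14 rose by 1.73 (adjusted p = 0.00311). CANX, the lectin chaperone calnexin, and TMX4 were lower, at -0.20 (adjusted p = 0.0473) and -0.28 (adjusted p = 0.0232).

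Of the unfolded protein response and CREB3 family genes, 14 of 18 rose and 1 fell (median 0.57). CREB3L1 (OASIS), which in mouse bone drives collagen and secretory genes, had 9.27, 8.11 and 8.98 FPKM in E3 libraries 1, 2 and 3, 118, 107 and 34.9 in those labelled E5 and 21.6, 28.6 and 119.7 in those labelled E7. It rose by 3.18 ± 0.71 (adjusted p = 0.00847), and its 3 highest libraries were those highest for SEC24D and KDELR3. CREB3L3 rose by 2.10 (adjusted p = 0.00257) at 1.03 to 2.05 FPKM in the cornea. EDEM2, a mannosidase of ER-associated degradation, fell by 0.28 (adjusted p = 0.0441). Of SRP receptor genes and translocon partners, 3 of 14 rose and 4 fell (median 0.00), near the shares of all genes. TRAM2, which in human cells is needed for collagen I synthesis, had 25.03, 24.4 and 25.8 at E3, 68.2, 64.3 and 43.2 at E5 and 34.5, 34.7 and 72.2 FPKM at E7 (1.24, adjusted p = 0.0125). The SRP receptor subunit SRPRA rose by 0.72 (adjusted p = 0.00138), and EMC8 and SGTA fell by 0.41 (adjusted p = 0.0108) and 0.36 (adjusted p = 0.00871).

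The other 2 lists cover export from the ER and traffic to and from the Golgi. Of large-cargo export and exit site genes, 10 of 26 rose and 3 fell (median 0.07). MIA3 (TANGO1), the receptor that loads procollagen at exit sites, had 13.6, 14.7 and 13.3 at E3, 27.6, 25.9 and 20.5 at E5 and 22.7, 20.9 and 30.8 FPKM at E7 (1.0 ± 0.18, adjusted p = 0.00298). Its binding partner MIA2 (cTAGE5) had 17.8, 15.9 and 16.5 at E3, 9.23, 10.6 and 12.0 at E5 and 10.8, 10.4 and 9.59 FPKM at E7 and fell by 0.52 ± 0.08 (adjusted p = 0.00163). YIPF5, an ER to Golgi membrane protein, rose by 1.19 (adjusted p = 0.00224), and ZW10, of an ER tether, fell by 0.36 (adjusted p = 0.00495). Of tethers, SNAREs and COPI regulators, 22 of 46 rose and 3 fell (median 0.34). ARFGAP1, which switches off the GTPase that recruits COPI, rose by 1.02 (adjusted p = 0.0221) and ARF3 by 1.0 (adjusted p = 0.000102), while TRAPPC3 and ARFGAP2 fell by 0.47 (adjusted p = 0.00876) and 0.40 (adjusted p = 0.00138).

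At E7 against E5 none of these list genes was called with all libraries. Without the libraries labelled E5 3 and E7 3, where 11.4% of all genes were lower at E7, 10 of 34 ER folding genes fell (1 higher), as did 6 of 18 of the unfolded protein response list (2 higher) and 13 of 46 tethers and COPI regulators (2 higher), while 4 of 26 large-cargo export genes, 2 of 10 of the oligosaccharyltransferase and 2 of 14 of the SRP receptor list (1 higher) were lower, closer to the share of all genes. CREB3L1 fell by 2.26 (adjusted p = 0.00016), TRAM2 by 1.05 (adjusted p = 0.000197), SERPINH1 by 0.93 (adjusted p = 0.0401) and ARFGAP1 by 0.87 (adjusted p = 0.00104). MIA3 fell by 0.41 (adjusted p = 0.0173), less than SEC24D or KDELR3, and whether these falls differ was not tested.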

How the data were processed

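RNA of 9 libraries was analysed, grouped by their titles. The authors deposited an expected count (estimated, often fractional) and an FPKM for each entry, per the file headers. The submitters' processing notes name HISAT, Bowtie2 and galGal5. Tool versions, the annotation and whether strand was used in counting are not given in the sources read here, so genes that overlap in antisense cannot be told apart. Of 46855 entries, 22897, with 21.4 to 23.5% of the counts, matched no gene of the RefSeq table (GRCg7b, another build, so no coordinates are given) and stayed out of the tests. Entries, named by gene number or by transcript, were summed per gene, with 0 for entries that a library does not list. The sums of expected counts were rounded to whole numbers. The test was that of edgeR 4.0.16 under R 4.3.3 (TMM factors, filterByExpr, quasi-likelihood F-test, all 9 libraries in a fit with no covariate, Benjamini-Hochberg adjustment over all genes tested, threshold 0.05). The corneal contrast is the mean of E5 and E7 minus E3. The SE is the absolute log2 fold change over the square root of F. Levels are FPKM, as mean ± SD.

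The procedure was tested on simulated data for the corneal contrast. Of 11575 genes, 64 of 100 changed 2-fold and 96 of 100 changed 4-fold were recovered, with 12 unchanged genes called. Genes of low level were not among those changed, and counts were drawn independently for each library. The split in profile among the corneal libraries was not simulated, so these rates need not hold for the real libraries. Replicates were compared by chi-square, and none agreed within sampling noise.

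Members, lists and rule were chosen with earlier results of these data known. Named were up to 4 called members per role and direction with the largest change in the cornea, all members of paralogue families, up to 6 called at E7 against E5, and up to 2 genes per pathway list and direction. Other members are described by range or call to complete each role. Alternatives were RLE factors, library size alone, no filter on low counts, limma 3.58.1 on log2(FPKM + 1) and log2(FPKM + 0.1), DESeq2 1.42.0, entries named by gene number only, a replicate block, only the groups compared, each library left out, and both the libraries labelled E5 3 and E7 3 left out. For cornea against E3, the 6 corneal libraries were also fitted as 1 group. Promoter sequence was not used here.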

Additional observations from a re-analysis of the deposited data

Results flagged for a closer look

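Among 62 genes named by rule, 5 had 1 corneal library far from the other 5, measured as its gap to the nearest of them over the whole range on log2 CPM with TMM factors. For 6 draws from 1 normal distribution, chance gives such a library in about 1 of 20 genes. The corneal libraries pool E5 and E7, and most genes were named by their calls, so that rate is no yardstick here. SEC23B was lowest in E7 library 2, at 118 CPM, against 144 to 156 CPM in the other 5, a gap of 0.707 of the range. TMED5 was highest in E5 library 2, at 307 CPM, against 271 to 284 CPM in the other 5 (gap 0.628). ARFGAP2 was lowest in E7 library 1, at 67.4 CPM, against 73.7 to 77.1 CPM in the other 5 (gap 0.661). EDEM2 was lowest in E5 library 2, at 20.5 CPM, against 25 to 27.3 CPM in the other 5 (gap 0.697). EMC8 was lowest in the library labelled E7 3, at 26.8 CPM, against 32.4 to 35.9 CPM in the other 5 (gap 0.654). All 5 genes were called in the cornea against E3, as were most of the 62, since the rule names mainly called genes.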

How the results depend on the processing

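Counts of members called higher kept within 1.5 times of 33 (E5 against E3), 28 (E7 against E3) and 34 (cornea against E3) under every alternative. With 1 library left out they ran from 24 to 38, from 20 to 32 and from 27 to 40. Over all genes, with 11906 to 11971 tested, 1424 to 2495, 1329 to 2336 and 1635 to 2669 were higher there. Those lower were 1334 to 2306, 1250 to 2154 and 1745 to 2682. Counts of members called lower are small and moved more. For E5 against E3 (1), they were 2 with RLE factors and with only the groups compared, 7 with library size alone and with either limma fit, 4 with DESeq2 and without the libraries labelled E5 3 and E7 3, and 1 to 4 with 1 library left out. For E7 against E3 (3), they were 6 with library size alone and with either limma fit, 5 with DESeq2, 1 on entries named by gene number only, 7 without the libraries labelled E5 3 and E7 3, and 1 to 4 with 1 library left out. For cornea against E3 (5), they were 8 with library size alone, 1 on entries named by gene number only, 3 under a replicate block, and 1 to 5 with 1 library left out: 1 without any of the E3 libraries and 3 without E5 1, E5 2 or E7 2. SEC31B, called lower at E7 and in the cornea, has no entry named by gene number and could not be called on those. At E7 against E5 the counts stayed at 0 and 0 under every alternative other than leaving out the libraries labelled E5 3 and E7 3, which gave 1 higher and 24 lower. With library size alone, 2955 of all 11748 genes were lower at E5, 2577 at E7 and 3338 in the cornea, each against E3. With TMM factors these were 2077, 1930 and 2442, with RLE factors 2156, 1964 and 2513 and with DESeq2 2507, 2293 and 2738. Limma gave 3200, 2875 and 3502 on log2(FPKM + 1), and 3147, 2814 and 3445 on log2(FPKM + 0.1). Without the libraries labelled E5 3 and E7 3 they were 2910, 2508 and 3083 of 11981 genes. Entries named by gene number only gave 846, 827 and 1082 of 6164. With only the groups compared, 2071 of 11476 were lower at E5. The cause of these shifts was not tested, beyond the all-gene median of -0.13 that library size alone gives.

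Deviations of same-numbered libraries correlated at -0.481, -0.349 and -0.771 between E5 and E7. The libraries labelled E5 3 and E7 3 each resembled the other stage, which by itself gives such signs, so these values cannot decide pairing. Against E3, correlations ran from -0.003 to 0.085 for same-numbered libraries and from -0.128 to 0.036 for differently numbered ones. Whether the numbers pair the libraries was not tested. Under the replicate block 27 members were higher at E5, 22 at E7 and 28 in the cornea, and 1, 2 and 3 were lower. Of all 11748 genes, 1603, 1466 and 1880 were higher under that block and 1525, 1431 and 2035 lower.

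SEC22C, at 0.07 in the cornea and never called, ran from -0.25 to 0.52 with 1 library left out, and turned to -0.10 with library size alone and with limma on log2(FPKM + 1), -0.18 with the smaller pseudocount, and -0.25 on entries named by gene number, without E3 2 and without the libraries labelled E5 3 and E7 3. It was -0.00 without E5 3, -0.01 without E7 1 and -0.17 without E7 3. SPCS2 was -0.01 in both limma fits. Over the 41 members named by rule, 23 kept direction and call in the cornea under each alternative that tested them. Other genes were not followed in this way. Of 771 member and setting pairs 663 kept both, 79 lost the call, 18 gained one and 11 turned. Those that kept both include 41 from the fit of the 6 corneal libraries as 1 group, which is close to the main contrast. Members without an entry named by gene number, such as SEC61B and COPZ1, were not in the fit on such entries. A search of promoters could not be run. Depth limits the members at a few FPKM, such as SEC22C, TMED8 and SEC14L5, most.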
